A study of Rattus norvegicus with 12 samples.

Results

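Rat hearts under phasic systolic overload (4 arrays) were compared gene by gene with hearts under phasic diastolic overload (4 arrays), a comparison that took in 8 of the 12 arrays of the study, chosen by their titles. Each array carried total RNA of a heart of the outbred Sprague-Dawley strain and was of the Illumina bead type. The remaining 4 arrays were controls, which entered the estimate of the spread and are given last for reference. The labels do not say for how long the overload was applied, from which chamber the tissue came, or that each array is a separate animal, so p-values here rest on sample-to-sample spread that may be partly technical.

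Pressure overload loads the ventricle while it ejects, and volume overload loads it while it fills. In textbook accounts the first thickens the wall with little dilation, and the second lengthens the muscle cells and dilates the chamber. Stretch and wall stress reach the nucleus through integrins, the mitogen-activated protein kinase (MAPK) cascades and calcium, and induce early transcription factors, natriuretic peptides and matrix genes. A growing muscle cell also makes more protein, which draws on the chaperones of the endoplasmic reticulum (ER).

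Between 9249 and 9931 of the 22523 probes on an array were above background (detection p under 0.05), or 41.1% to 44.1%, and pairs of arrays correlated at 0.984 to 0.992 over the tested probes. Cardiomyocyte markers were at a median of 14.11 in log2 intensity in systolic, 14.21 in diastolic and 14.14 in control hearts, close to the highest log2 intensity measured, 14.99. Of 8 listed mesothelial markers 0 passed the filter, and S100a8 and S100a9, markers of neutrophils, were detected on 0 of 12 arrays. Diastolic heart 1 stood apart on the first principal component of the 8 overloaded arrays (26.8% of the variance), at 25.03 against −11.4 to 8.14 for the others. It also had the lowest array weight, at 0.692, so values without it are given beside the results that turn on it.

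No probe passed the test between the overloads. Of 10234 tested probes, limma called 0 (0% in either direction, Benjamini-Hochberg adjusted p under 0.05), and the smallest adjusted p was 0.499. An unadjusted p under 0.05 was reached by 647 probes, 359 with the higher mean under systolic overload and 288 with the lower, where 511.7 would be expected by chance. The differences were small against the spread: their median standard error (SE) was 0.13 on the log2 scale, 87.6% were under 0.25 in size, and for 97.2% of probes the 95% interval lay within 2-fold either way. The median difference was 0.01 over the 7348 genes, with each gene taken by its brightest tested probe. Of the tested probes 7473 had a gene symbol, and the others are neither ranked nor named below, though some had p-values as small. All differences below are systolic minus diastolic in log2 intensity, and none of the genes named passed the test.

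**Figure D1:**
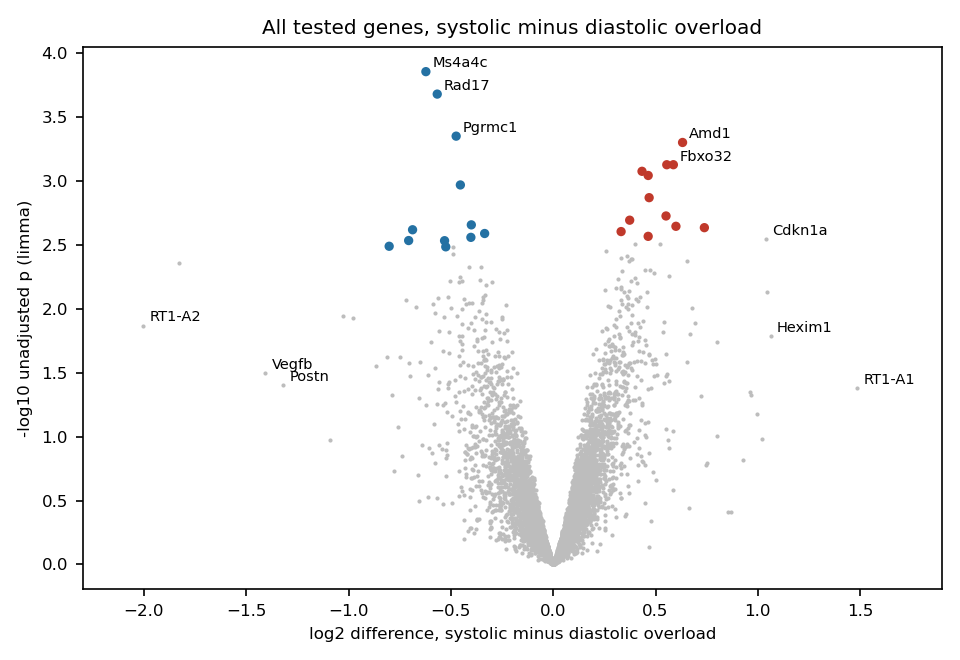
Each point is 1 of 7348 genes, with the log2 difference (systolic minus diastolic overload) on the x axis and −log10 of limma's unadjusted p on the y axis. Red and blue points are the 12 genes with the smallest p on the higher and on the lower side, and none of them has an adjusted p under 0.499.

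Among the genes with a higher mean under systolic overload, the smallest p belonged to Amd1, S-adenosylmethionine decarboxylase, which supplies polyamine synthesis. Its log2 intensity was 10.52, 10.35, 10.06 and 10.21 in systolic hearts 1 to 4, against 9.41, 9.53, 10.00 and 9.68 in diastolic hearts 1 to 4 (difference 0.63 ± 0.14 SE, 95% interval 0.34 to 0.93, adjusted p = 0.511). The lowest systolic heart lay just above the highest diastolic one, and the 4 controls were at 9.75 to 10.04. Fbxo32, atrogin-1, a muscle ubiquitin ligase that marks proteins for the proteasome, was at 6.44, 6.32, 6.55 and 6.61 in systolic against 5.67, 6.11, 5.87 and 5.91 in diastolic hearts (0.59 ± 0.13 SE, adjusted p = 0.537). Its groups did not overlap either, but the controls, at 5.93 to 6.55, overlapped both. Trim63, MuRF1, the other well-known atrophy ligase of muscle, was at 11.31, 11.19, 10.86 and 10.83 in systolic against 10.43, 10.44, 10.56 and 10.92 in diastolic hearts, where heart 4 overlapped the systolic group (0.46 ± 0.15 SE, adjusted p = 0.699).

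Of the 24 genes with the smallest p, 12 on each side, 22 had 4 systolic and 4 diastolic hearts that did not overlap. Among all 7348 genes 212 did not overlap (2.89%), 113 of them higher under systolic overload (1.54%) and 99 lower (1.35%), and the 24 were ranked on these same values. The other 10 on the higher side were Traf4, a signalling adaptor, Hspa5 and Dnajb9, taken up below with the chaperones, Rapgef2, an exchange factor for the GTPase Rap1, Zfp638 and Zfp787, zinc finger proteins, Trak2, an adaptor that carries mitochondria along microtubules, the histone gene Hist2h3c2, Hspa2, a member of the heat shock 70 family, and Spry1, a feedback inhibitor of receptor tyrosine kinase signalling. Hspa2 had the largest difference of these 12, at 7.19, 7.32, 6.97 and 7.10 in systolic against 6.20, 6.08, 6.69 and 6.65 in diastolic hearts (0.74 ± 0.19 SE, adjusted p = 0.637). Its controls ran from 6.08 to 7.02 and so overlapped both groups. Spry1 had the smallest, at 6.05, 5.94, 6.16 and 6.04 against 5.78, 5.61, 5.63 and 5.84 (0.33 ± 0.09 SE, adjusted p = 0.637). Traf4 was above background in 4 of 4 systolic hearts and 1 of 4 diastolic hearts, and its difference of 0.56 therefore compares measured with near-background signal.

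On the lower side the smallest p of all 7348 genes belonged to Ms4a4c, a membrane protein of the MS4A family. It was at 5.07, 5.04, 4.98 and 5.36 in systolic against 5.89, 5.44, 5.72 and 5.88 in diastolic hearts (−0.62 ± 0.12 SE, adjusted p = 0.499). Rad17, a DNA damage checkpoint protein, was at 4.92, 5.35, 5.03 and 4.83 against 5.56, 5.54, 5.57 and 5.71 (−0.57 ± 0.11 SE, adjusted p = 0.499). Both are dim probes, above background in 1 of 4 systolic and 4 of 4 diastolic hearts. Rgma and Fchsd1 were above background in 0 of 4 systolic hearts and in 3 and 4 diastolic hearts. Only bounds on the ratio of the measured group means can therefore be given, at least 1.08-fold and at least 1.28-fold higher under diastolic overload. These bounds leave out sampling error, and neither gene passed the test (limma adjusted p = 0.637 for both).

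Better measured was Pgrmc1, a membrane haem-binding protein known as a progesterone receptor component, at 7.40, 7.38, 7.30 and 7.44 in systolic against 7.75, 7.78, 7.89 and 8.00 in diastolic hearts (−0.47 ± 0.10 SE, 95% interval −0.69 to −0.26, adjusted p = 0.511). Each systolic heart lay below 4 of 4 diastolic hearts, and 3 of the 4 controls, at 7.31 to 7.51, lay below the diastolic hearts, with the other at 7.76. Fkbp10, a prolyl isomerase of the ER that assists collagen folding, was at 8.11, 8.08, 7.93 and 8.00 against 8.56, 8.32, 8.68 and 8.37 (−0.45 ± 0.11 SE, adjusted p = 0.585). Here the controls, at 8.31 to 8.68, matched the diastolic range, and the systolic hearts lay below both. Hsf2, a heat shock transcription factor, was at 8.42, 8.14, 8.50 and 8.48 against 8.90, 8.90, 9.10 and 8.75 (−0.52 ± 0.15 SE, adjusted p = 0.637). The muscle phosphatase-like Styxl2 (−0.53), the adhesion protein Ninj2 (−0.33), the lysosomal exonuclease Pld4 (−0.69), the T cell receptor chain Cd3d (−0.71) and the early response gene Ier3 (−0.80) complete the 12. Of these, Cd3d alone overlapped between the groups. Pld4 and Cd3d were dim, above background in 3 of 4 systolic and 4 of 4 diastolic hearts, so their differences partly rest on near-background signal.

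**Figure D2:**
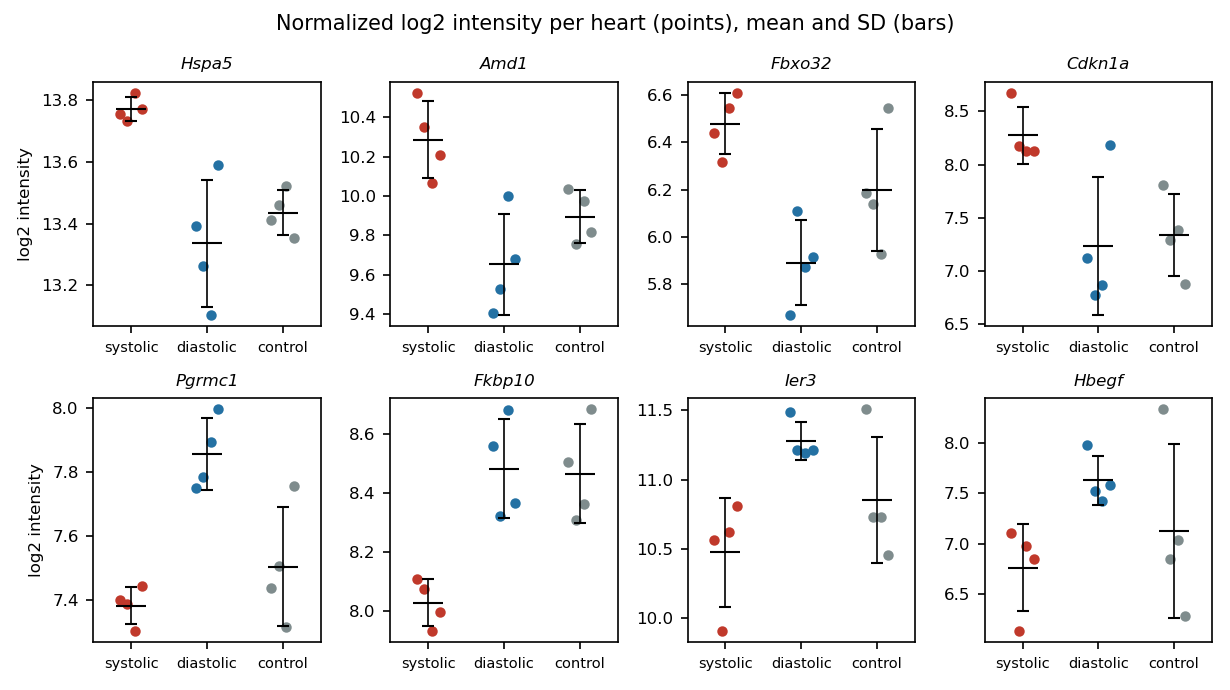
Points are normalized log2 intensities of single hearts (y axis) in the systolic, diastolic and control groups (x axis, 4 hearts each), with bars for mean and SD, and each panel has its own y range. The top row shows genes with a higher systolic mean, among which Cdkn1a has 1 diastolic heart at 8.18 inside the systolic range, and the bottom row shows genes with a lower one.

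Of the 38 lists, the chaperones and folding enzymes of the ER had the most members whose groups did not overlap between the overloads. They bind nascent secretory and membrane proteins, supply calcium buffering and form disulfide bonds, and in mammals they are induced together when unfolded protein builds up in the ER. Of 20 listed genes 16 were tested: 15 had a higher mean under systolic overload and 1 a lower one (background 52.2% and 47.8%), and the median difference was 0.22, against 0.01 over all genes. Of the 16, 6 had groups that did not overlap, each with the higher values under systolic overload (1.54% of all genes). Of the 16, 7 had an unadjusted p under 0.05 by limma, as did 430 of all 7348 genes (5.85%), and none passed after adjustment. Fkbp10, the prolyl isomerase of the ER that was lower under systolic overload without overlap (−0.45, above), was not on the list. The list was chosen with earlier results of these data known, and no test was run on it. Its members were measured in the same 8 hearts and are not independent of each other, so these counts are descriptive. Without diastolic heart 1 the median was 0.25, and with other single arrays left out it ran from 0.19 to 0.25.

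Hspa5 encodes BiP, the ER member of the heat shock 70 family, which also holds the sensors of the unfolded protein response inactive. It was at 13.75, 13.73, 13.82 and 13.77 in systolic against 13.39, 13.26, 13.10 and 13.59 in diastolic hearts (0.43 ± 0.10 SE, 95% interval 0.22 to 0.65, adjusted p = 0.537). The systolic hearts, with an SD of 0.04, lay above the controls too, which ran from 13.35 to 13.52. Dnajb9, a co-chaperone of BiP, was at 9.58, 9.53, 9.68 and 9.89 against 8.97, 9.20, 9.10 and 9.55 (0.46 ± 0.13 SE, adjusted p = 0.637), with diastolic heart 4 inside the systolic range.

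The lectin chaperones of glycoproteins were Calr, calreticulin, and Canx, calnexin. Calr was at 13.06, 13.13, 13.10 and 13.13 in systolic against 12.95, 12.76, 12.83 and 12.85 in diastolic hearts (0.26 ± 0.07 SE, adjusted p = 0.650), and Canx had a difference of 0.28 ± 0.09 SE (adjusted p = 0.699). For Calr the controls, at 12.96 to 13.05, lay between the groups. Manf, a secreted ER stress protein, was at 10.17, 10.12, 10.09 and 10.04 against 9.92, 9.73, 9.63 and 9.90 (0.31 ± 0.11 SE, adjusted p = 0.714). Hsp90b1, the ER member of the heat shock 90 family, had a difference of 0.30 ± 0.11 SE (adjusted p = 0.722), and Dnajc3, an inhibitor of the kinase PERK, one of 0.21 ± 0.10 SE (adjusted p = 0.779). The disulfide isomerases were closer to 0, with P4hb at −0.02, Pdia3 at 0.10 and Pdia6 at 0.13, while Pdia4 was at 0.22 and the oxidase Ero1a at 0.24, both with overlapping groups.

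**Figure D3:**
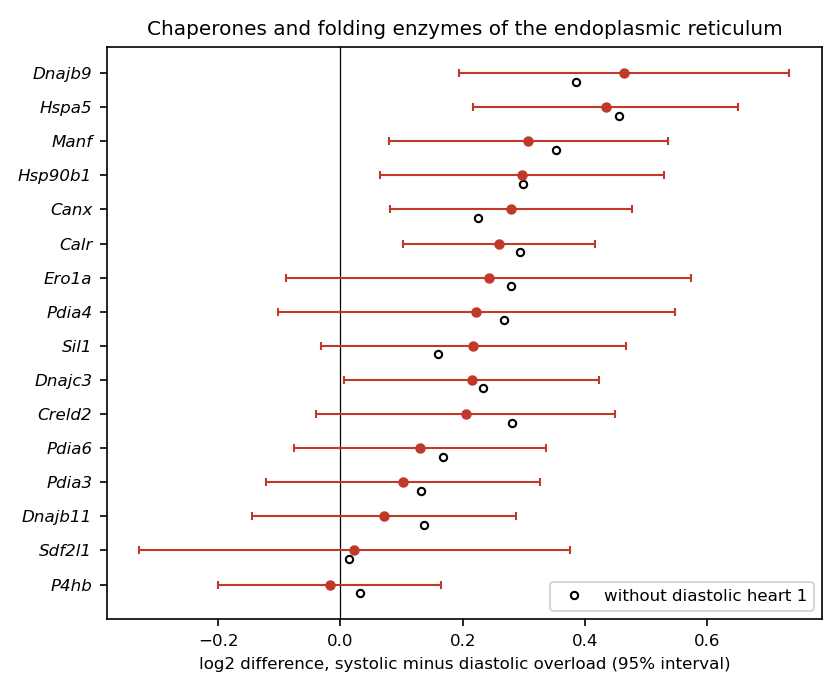
Filled points are the log2 differences (systolic minus diastolic overload, x axis) of the 16 tested ER chaperones and folding enzymes, with 95% intervals from limma, and open points are the differences without diastolic heart 1. The intervals of Dnajb9, Hspa5, Manf, Hsp90b1, Canx, Calr and Dnajc3 lie above 0 before adjustment for all probes.

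Promoters of several of these genes carry the ER stress element, to which the transcription factor ATF6 binds together with NF-Y in mammals, and are shown as the sequence context of this list, which was looked up with its values known. RefSeq promoters of build GRCr8, from 250 bases before to 50 after the gene's start, were at hand for 12 of the 16, and those of Manf, Ero1a, Pdia3 and Pdia6 were not used here. The element, CCAAT and CCACG separated by any 9 bases, was searched on both strands and found in 6 of the 12, against 12 of the 6132 promoters of tested genes (0.196%, these 6 included) and 21 of all 27457 promoters of the same length (0.0765%). It was not found in those of Dnajb9, Pdia4, Sil1, Dnajb11, Sdf2l1 and P4hb. The related element ERSE-II, ATTGG and CCACG separated by 1 base, was found in 1 of the 12, in 8 of those of tested genes (0.13%) and in 15 of all promoters (0.0546%). A match describes the letters in this window, and neither binding nor any relation to the differences was tested. The 7 sites, each read 5′ to 3′ on the strand that carries the element, with its fixed bases in capitals, are:
Hspa5: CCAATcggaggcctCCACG
Hsp90b1: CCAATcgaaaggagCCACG
Hsp90b1: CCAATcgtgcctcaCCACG
Canx: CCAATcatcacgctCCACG
Calr: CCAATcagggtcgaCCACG
Dnajc3: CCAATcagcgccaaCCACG
Creld2: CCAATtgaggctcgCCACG
The Hspa5 site begins 43 bases before the gene's start. The Hspa5 promoter (GRCr8 chr3:38452766-38453065, + strand) and the Hsp90b1 promoter (GRCr8 chr7:23012244-23012543, − strand), written on the gene's strand with the fixed bases of the element in capitals, read:
Hspa5: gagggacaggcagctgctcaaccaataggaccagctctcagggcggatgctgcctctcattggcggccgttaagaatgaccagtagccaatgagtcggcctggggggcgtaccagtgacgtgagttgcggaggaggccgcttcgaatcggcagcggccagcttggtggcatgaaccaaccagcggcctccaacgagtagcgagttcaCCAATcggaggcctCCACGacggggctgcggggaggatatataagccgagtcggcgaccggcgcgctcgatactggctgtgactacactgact
Hsp90b1: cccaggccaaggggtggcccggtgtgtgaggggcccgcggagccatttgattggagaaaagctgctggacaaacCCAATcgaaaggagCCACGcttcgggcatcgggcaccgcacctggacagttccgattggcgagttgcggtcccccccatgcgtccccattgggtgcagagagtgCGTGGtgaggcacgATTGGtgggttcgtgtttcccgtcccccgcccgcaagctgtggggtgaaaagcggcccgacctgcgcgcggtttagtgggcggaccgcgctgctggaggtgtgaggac

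Other arms of the unfolded protein response gave smaller values. Over all genes 52.2% had a higher and 47.8% a lower systolic mean. Of 19 sensors and ER-associated degradation genes 11 were tested, 7 with a higher and 4 with a lower systolic mean, and 0 had groups that did not overlap (median 0.08, and 0.0329, 0.0381 and 0.0409 without diastolic heart 4, diastolic heart 3 and systolic heart 4, 0.0471 without systolic heart 1, and 0.0208 without the filter on dim probes). Herpud1, a membrane protein of the degradation complex, had the largest difference, at 12.22, 12.04, 12.18 and 12.56 in systolic against 11.48, 11.92, 12.16 and 11.99 in diastolic hearts (0.36 ± 0.17 SE, adjusted p = 0.809), overlapping between the groups and at 0.23 without diastolic heart 1. The transcription factor Xbp1 was at 0.10 ± 0.11 SE and the sensor kinase Eif2ak3 at −0.09. Of 13 tested genes of the ATF4 and CHOP branch 7 had a higher and 6 a lower mean (median 0.02, from −0.0389 to 0.0647 with single arrays left out, and below 0 without diastolic heart 4 or systolic heart 4). Ddit3, which encodes CHOP, overlapped between the groups (0.34 ± 0.21 SE, adjusted p = 0.899, and 0.22 without systolic heart 2). Cytosolic heat shock genes had 6 higher and 9 lower means among 15 (median −0.01, but 0.08 with median scaling). Hspa2 was the 1 member of the 15 whose groups did not overlap, against 2.89% of all genes.

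Genes that mark cardiac load mostly had lower means under systolic overload. Of 25 listed genes 18 were tested, 15 with a lower and 3 with a higher mean (47.8% and 52.2% of all genes, median −0.09). Groups did not overlap for 3 of the 18, each lower under systolic overload, against 1.35% of all genes. Hbegf, a growth factor shed from the membrane that acts on the EGF receptor, was at 7.10, 6.13, 6.97 and 6.84 in systolic against 7.98, 7.52, 7.43 and 7.58 in diastolic hearts (−0.87 ± 0.35 SE, 95% interval −1.62 to −0.11, adjusted p = 0.740). Its controls ran from 6.29 to 8.34 and overlapped both groups. Flnc, filamin C, an actin crosslinker of the Z-disc, was at 11.09, 11.00, 11.04 and 11.10 against 11.26, 11.30, 11.70 and 11.45 (−0.37 ± 0.14 SE, adjusted p = 0.733). Fhl1, a LIM protein that takes part in titin-based stretch sensing, was at 9.64, 9.23, 9.46 and 9.46 against 9.67, 9.75, 9.71 and 9.80 (−0.28 ± 0.11 SE, adjusted p = 0.737).

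Ccn2, connective tissue growth factor, was at 12.996, 12.59, 11.67 and 12.91 in systolic against 13.69, 12.92, 13.35 and 13.20 in diastolic hearts (−0.75 ± 0.29 SE, adjusted p = 0.737), with overlap at diastolic heart 2, and −0.46 without systolic heart 3. For the best known load genes the difference was smaller than the spread between hearts. Nppa, atrial natriuretic peptide, was at 12.89, 10.46, 11.71 and 12.89 against 13.53, 14.46, 11.23 and 10.46, a difference of −0.43 with a 95% interval of −2.369 to 1.4996, that took the other sign without diastolic heart 2 (0.25) or systolic heart 2 (0.08). Nppb (−0.04), Myh7 (−0.03), Ankrd1 (−0.03) and Acta1 (−0.08) had differences that took the other sign under median scaling, and Nppb, Myh7 and Ankrd1 were between 14.38 and 14.93 in 8 of 8 overloaded hearts, where bead signals can be compressed. The list's median was −0.05 without diastolic heart 1, without diastolic heart 2 or without systolic heart 2, and −0.15 without diastolic heart 3. Sarcomere and Z-disc genes had a median of −0.02 over 16 tested members (0.06 with median scaling), and calcium-handling genes one of 0.03 over 24, and neither list had a member whose groups did not overlap.

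Immediate early genes, which respond to a stimulus without new protein synthesis, were split. Of 28 listed genes 20 were tested, 5 with a higher and 15 with a lower systolic mean (52.2% and 47.8% of all genes, median −0.05). Groups did not overlap for 4 of the 20, against 2.89% of all genes. Jun, a subunit of the AP-1 factor, was higher in each systolic heart, at 9.96, 9.98, 9.69 and 10.06 against 9.54, 9.12, 9.57 and 9.62 in diastolic hearts (0.46 ± 0.14 SE, adjusted p = 0.697). Ier3, an apoptosis regulator, was lower, at 10.56, 9.91, 10.63 and 10.81 against 11.49, 11.21, 11.20 and 11.22 (−0.80 ± 0.22 SE, 95% interval −1.28 to −0.32, adjusted p = 0.637). Maff, a small Maf factor (−0.46 ± 0.14 SE), and Ier5 (−0.43 ± 0.14 SE) were also lower in each systolic heart, though a second probe of Ier5 gave −0.14.

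Fos was at 11.59, 10.75, 11.65 and 11.79 in systolic against 11.72, 10.75, 11.20 and 11.83 in diastolic hearts, a difference of 0.07 ± 0.30 SE with wholly overlapping groups. Egr1 (−0.00 ± 0.21 SE) and Atf3 (−0.00 ± 0.13 SE) likewise differed by less than their spread. The list's median moved to −0.00 without diastolic heart 1, when 10 members had a higher and 10 a lower mean, to −0.17 without diastolic heart 2, and to −0.12, −0.11 and −0.10 without systolic hearts 1, 3 and 4. In the MAPK cascades 14 of 23 tested kinases had a lower systolic mean (47.8% of all genes, median −0.05, and −0.10 without systolic heart 3 and −0.08 without diastolic heart 2). Map2k3, an activator of p38, was the 1 kinase of 23 whose groups did not overlap, against 2.89% of all genes. It was at 13.12, 13.18, 13.11 and 13.20 against 13.40, 13.33, 13.34 and 13.44 (−0.22 ± 0.08 SE, adjusted p = 0.715). Among 15 feedback inhibitors of these cascades, Spry1 stood higher (above), and Dusp10, a phosphatase of JNK and p38, had the lowest value (−0.60 ± 0.22 SE, adjusted p = 0.733, groups overlapping).

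Collagens and other matrix genes had lower systolic means, and much of this lay in diastolic heart 1. Of 11 tested collagens 10 had a lower mean (47.8% of all genes, median −0.24, and −0.11 without diastolic heart 1, −0.14 without systolic heart 1 and −0.36 without diastolic heart 3). Col3a1, a fibrillar collagen of the interstitium, was at 8.94, 9.45, 9.40 and 8.83 in systolic against 10.87, 9.62, 9.80 and 9.57 in diastolic hearts (−0.81 ± 0.32 SE, adjusted p = 0.737), and −0.51 without diastolic heart 1. It was the 1 collagen of 11 whose groups did not overlap, against 2.89% of all genes. Postn, periostin, a product of activated fibroblasts, was at 6.45, 6.35, 7.38 and 7.33 against 9.98, 8.00, 8.05 and 6.76 (−1.32 ± 0.58 SE, adjusted p = 0.765), and −0.73 without that heart.

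The wider list of matrix glycoproteins had a median of −0.12 over 23 tested genes, and −0.01 without diastolic heart 1. Fibroblast markers had a median of −0.06 over 13 tested of 15 and 0.04 without diastolic heart 1. Of the 13, 5 had a higher and 8 a lower systolic mean (52.2% and 47.8% of all genes). Pdgfra was higher (0.39 ± 0.16 SE, and 0.51 without diastolic heart 1) and S100a4 lower (−0.71 ± 0.28 SE, and −0.39 without it), both with overlap. The list's mean log2 deviation per heart, from its genes' 12-heart means, ran from −0.14 to 0.04 in systolic, −0.17 to 0.45 in diastolic and −0.17 to 0.25 in control hearts, with the highest value in diastolic heart 1. The defining fibroblast marker Thy1 was detected on 0 of 12 arrays. The part of fibroblast content in the matrix values was not tested, and in RNA from whole tissue fewer cells of a type and less RNA per cell cannot be told apart. Some matrix enzymes ran the other way, among them the protease Adamts1, at 10.96, 10.36, 10.82 and 11.33 against 10.01, 9.66, 10.74 and 10.31 (0.69 ± 0.24 SE, adjusted p = 0.714), with overlap.

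Lymphocyte markers had lower systolic means in 10 of 11 tested members of a list of 20 (47.8% of all genes, median −0.28). Cd3d, a subunit of the T cell antigen receptor, was at 5.58, 6.10, 5.65 and 5.24 in systolic against 6.55, 6.10, 6.19 and 6.55 in diastolic hearts (−0.71 ± 0.19 SE, adjusted p = 0.637). Cd8a, the co-receptor of cytotoxic T cells, was at 5.91, 6.22, 5.68 and 5.03 against 6.68, 6.05, 7.57 and 6.44 (−0.98 ± 0.33 SE, adjusted p = 0.714). Both overlapped at 1 diastolic heart, heart 2, and 0 of the 11 members had groups that did not overlap. The median was −0.24 without diastolic heart 1, −0.16 without systolic heart 4, −0.42 without diastolic heart 2 and −0.15 without background correction, and these markers lay close to background. Of the listed markers that failed the filter, Cd8b, Cd5 and Ms4a1 were detected on 0 of 12 arrays, and Cd4 and Ptprc on at most 2.

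Macrophage markers had a lower systolic mean in 10 of 12 tested members (47.8% of all genes, median −0.16). The median was −0.10 without diastolic heart 1, when the count was 7, and −0.32 without diastolic heart 4 and −0.26 without systolic heart 4. Aif1, a calcium-binding protein of macrophages, was at 9.10, 9.33, 9.62 and 9.29 in systolic against 10.57, 9.58, 9.87 and 9.62 in diastolic hearts (−0.58 ± 0.19 SE, adjusted p = 0.714). Its groups overlapped, and without diastolic heart 1 the difference was −0.36. The medians of cytokine and interferon-stimulated genes took the other sign without the same heart. The cytokine list had a median of −0.12 over 37 tested genes and 0.06 without diastolic heart 1, and the interferon list one of −0.18 over 30 and 0.09 without it. The cytokine median was −0.05 without systolic heart 1, and the interferon median was −0.47 without diastolic heart 3, −0.31 without systolic heart 3, −0.28 without diastolic heart 2 and −0.03 without systolic heart 1. Per heart, the interferon list's mean deviation ran from −0.57 to 0.24 in systolic, −0.62 to 0.73 in diastolic and −0.39 to 0.76 in control hearts, so each group spanned most of the range.

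**Figure D4:**
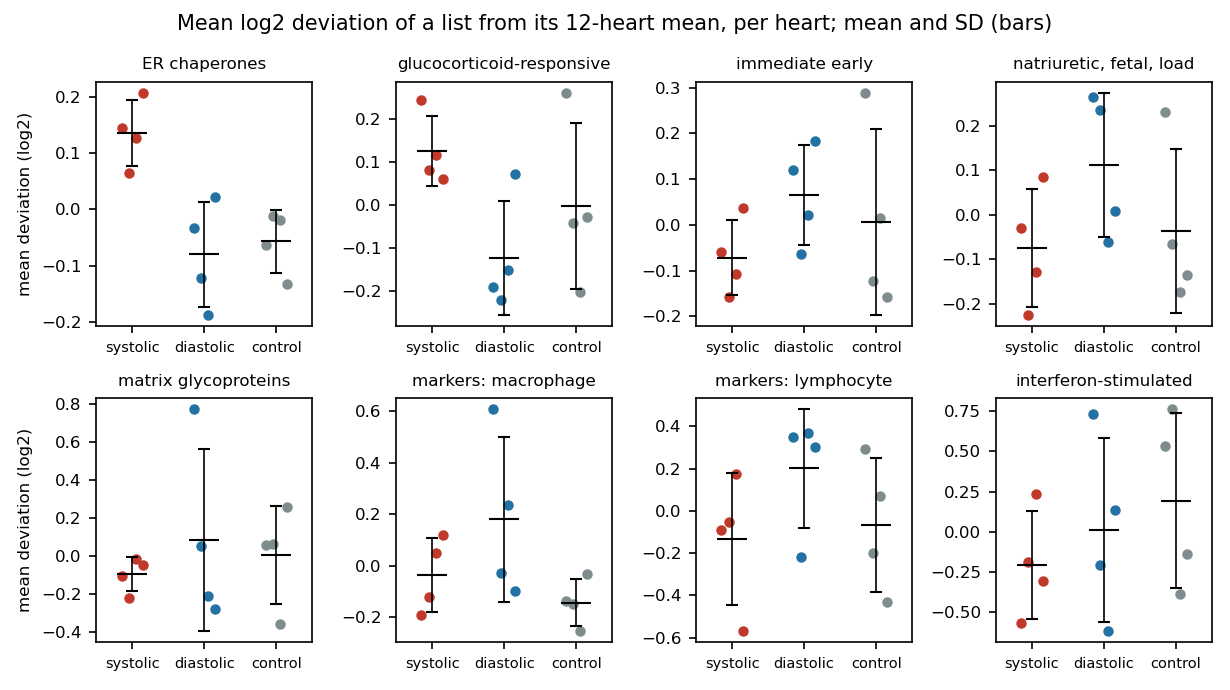
Points are single hearts in the systolic, diastolic and control groups (x axis, 4 hearts each), and the y axis is the mean log2 deviation of a list's tested genes from their 12-heart means, with bars for mean and SD. ER chaperones ran from 0.06 to 0.21 in systolic and −0.19 to 0.02 in diastolic hearts, and in the matrix glycoprotein and macrophage panels diastolic heart 1 is the highest point, at 0.78 and 0.61.

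Genes that respond to glucocorticoids had higher systolic means in 13 of 18 tested members of a list of 24 (52.2% of all genes, median 0.16, and 0.14 without diastolic heart 1). The median was 0.11, 0.13 and 0.22 without systolic hearts 1, 4 and 3, and 0.0995 at the lowest under the other settings. Cdkn1a, the cell cycle inhibitor p21, was at 8.68, 8.17, 8.13 and 8.13 in systolic against 7.12, 6.78, 6.87 and 8.18 in diastolic hearts (1.04 ± 0.28 SE, 95% interval 0.43 to 1.65, adjusted p = 0.637), so 3 of 4 diastolic hearts lay below the systolic group. Lcn2, lipocalin 2, an iron-siderophore binding protein, was at 9.36, 9.71, 8.72 and 8.33 against 7.92, 7.98, 8.12 and 8.28 (0.96 ± 0.43 SE, adjusted p = 0.779). Lcn2 was the 1 member of the 18 whose groups did not overlap, against 2.89% of all genes. Its controls ran from 7.58 to 9.77, and 2 of them were as high as the systolic hearts. Zbtb16, a zinc finger repressor (0.80 ± 0.30 SE), Pdk4, the kinase that shuts pyruvate dehydrogenase (0.56 ± 0.24 SE), and Fkbp5, a co-chaperone of the glucocorticoid receptor (0.48 ± 0.19 SE), had overlapping groups, and Per1 (0.06), Sgk1 (−0.12) and Dusp1 (−0.16), other well-known targets, were near 0 or below it.

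Fatty acid oxidation genes, the main fuel pathway of the adult heart, had a higher systolic mean in 31 of 36 tested members (52.2% of all genes), with small differences. Their median was 0.09, from 0.06 without diastolic heart 1 or systolic heart 4 to 0.15 without systolic heart 1 and 0.17 without diastolic heart 4. Acadvl, the very long chain acyl-CoA dehydrogenase, was the 1 member of 36 whose groups did not overlap, against 2.89% of all genes. It was at 12.91, 12.93, 13.15 and 13.08 in systolic against 12.81, 12.83, 12.87 and 12.86 in diastolic hearts (0.17 ± 0.09 SE, adjusted p = 0.860). Cpt1a, the liver-type carnitine palmitoyltransferase, had a difference of 0.44 ± 0.17 SE with overlapping groups. Genes of the citric acid cycle and the respiratory chain had a median of 0.01 over 37 tested members, and −0.01 without diastolic heart 1.

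In insulin and PI3K signalling 3 of 19 tested genes had groups that did not overlap, each higher under systolic overload (1.54% of all genes, median 0.08, and 0.04 and 0.05 without diastolic hearts 3 and 1). Tsc1, a brake on mTOR, was at 6.01, 5.47, 5.80 and 5.70 in systolic against 5.38, 4.95, 5.28 and 5.28 in diastolic hearts (0.52 ± 0.14 SE, adjusted p = 0.637). It was above background in 4 of 4 systolic but 2 of 4 diastolic hearts, so its difference partly compares measured with near-background signal. The insulin receptor Insr (0.47 ± 0.18 SE, adjusted p = 0.737) and the kinase Gsk3b (0.14 ± 0.12 SE, adjusted p = 0.961) were the others of the 3. Some members of further lists had groups that did not overlap, against 2.89% of all genes. Among them were Rock2, a kinase of the actin cytoskeleton (0.33 ± 0.10 SE), and Tob1, an antiproliferative protein (0.36 ± 0.11 SE), on the higher side. Itga5, the fibronectin receptor's alpha chain (−0.45 ± 0.18 SE), Smad2, a TGF-beta signal carrier (−0.25 ± 0.09 SE), and Becn1, an autophagy initiator (−0.24 ± 0.11 SE), were on the lower side. Tob1 was 1 of 27 tested members of its list and Smad2 1 of 22. The integrin list had 1 higher and 1 lower among 19, and the proteasome and autophagy list 1 higher and 2 lower among 31. Such counts are no result about these lists. For Becn1 the gap was narrow, from 9.59 in systolic heart 4 to 9.60 in diastolic heart 1. Erythroid genes had higher systolic means in 5 of 5 tested members (52.2% of all genes, median 0.26, and 0.12 without background correction), with Hba-a1, alpha globin, at 9.39, 9.09, 8.34 and 8.95 against 8.32, 8.02, 7.10 and 9.15 (0.80 ± 0.45 SE, adjusted p = 0.864), and 0.45 without diastolic heart 3. The listed erythroid genes Alas2 and Ahsp were detected on 0 of 12 arrays. Erythroid transcripts come from blood cells, and the part of blood content in the other values was not tested.

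**Figure D5:**
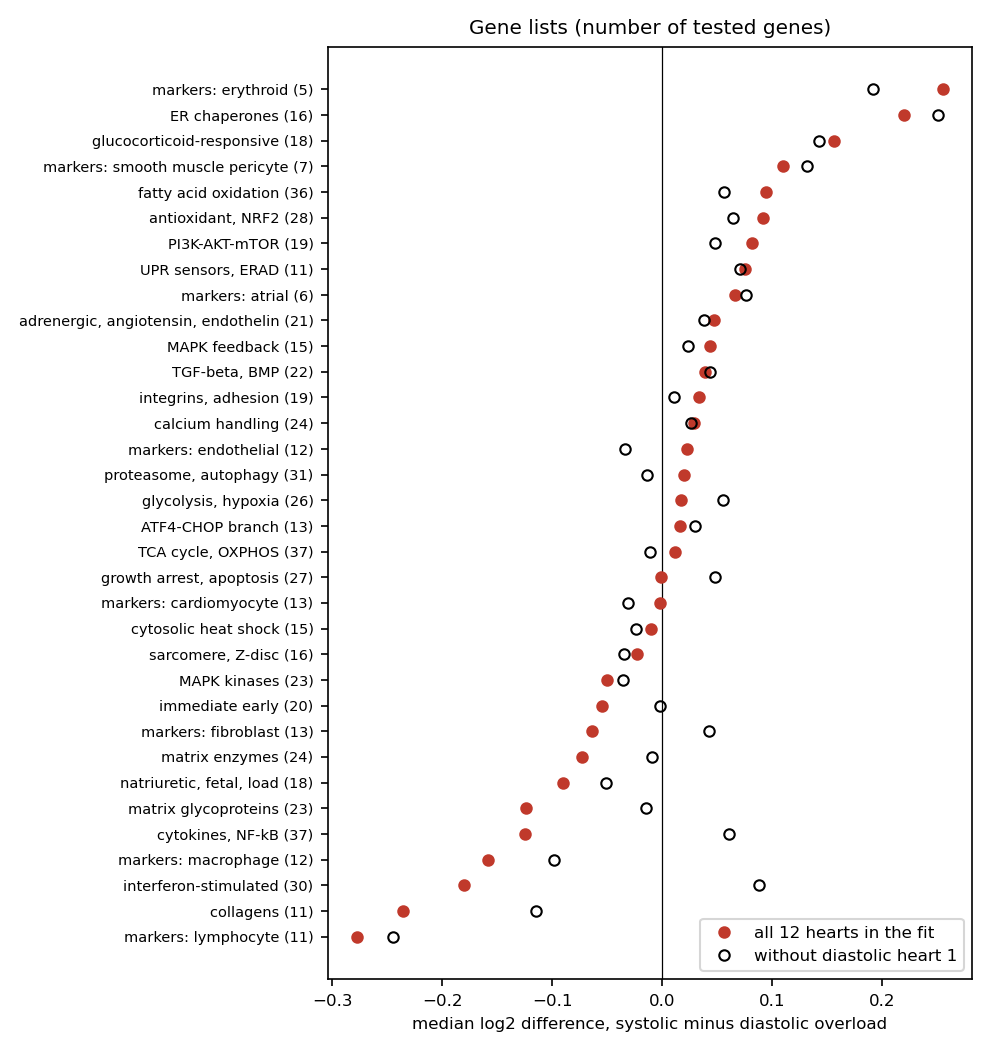
Filled points are the median log2 differences (systolic minus diastolic overload, x axis) of the 34 gene lists with at least 5 tested genes, the number of which stands in brackets, and open points are the medians without diastolic heart 1. The ER chaperones stay at 0.22 and 0.25, while the interferon and cytokine lists pass from below 0 to above it.

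Differences of over 2-fold (1 on the log2 scale) were found for 11 genes, 5 higher and 6 lower under systolic overload, and apart from Cdkn1a and Postn these were singled out after their values were seen. Hexim1, an inhibitor of the elongation factor P-TEFb, was at 8.60, 9.30, 8.44 and 9.13 in systolic against 7.46, 7.82, 8.26 and 7.67 in diastolic hearts (1.06 ± 0.38 SE, adjusted p = 0.722). Ppp1r10, a nuclear targeting subunit of protein phosphatase 1, was at 8.14, 8.99, 7.87 and 8.45 against 7.48, 7.55, 7.30 and 6.93 (1.05 ± 0.33 SE, adjusted p = 0.697). Neither pair of groups overlapped, and control heart 1 was the lowest of all 12 hearts for both, at 6.51 and 6.84. Vegfb, a growth factor of the VEGF family, was at 7.41, 7.18, 8.96 and 9.08 in systolic against 9.62, 9.96, 9.27 and 9.41 in diastolic hearts (−1.41 ± 0.58 SE, adjusted p = 0.746). Its controls ran from 6.98 to 10.04 and covered both groups.

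C3h15orf48, named here as the annotation gives it, was at 5.74, 5.74, 4.73 and 4.81 in systolic against 7.89, 6.91, 7.21 and 6.33 in diastolic hearts (−1.83 ± 0.53 SE, adjusted p = 0.650), and Ass1, argininosuccinate synthase, had a difference of −1.03 ± 0.35 SE. Both were lower in each systolic heart than in any diastolic heart, with C3h15orf48 above background in 2 and Ass1 in 3 of the 4 systolic hearts. Kcne1, a potassium channel subunit, had a difference of −1.09 ± 0.63 SE with overlapping groups, was above background in 1 of 4 systolic and 3 of 4 diastolic hearts, and was at −0.54 without diastolic heart 2. The class I histocompatibility genes RT1-A1, RT1-A2 and RT1-A3 are near-identical and polymorphic, so signal may be shared between their probes or depend on the allele, and their values are uncertain. RT1-A2 was at 10.51, 6.66, 10.10 and 7.18 in systolic against 10.35, 10.77, 10.81 and 10.52 in diastolic hearts (−2.004 ± 0.70 SE, adjusted p = 0.715). RT1-A1 was at 8.84, 11.21, 11.18 and 11.85 against 11.19, 9.15, 8.35 and 8.45 (1.48 ± 0.66 SE, adjusted p = 0.765), and RT1-A3 had its low values in the same 4 hearts, namely systolic heart 1 and diastolic hearts 2 to 4.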

How the data were processed

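Total RNA of rat hearts was labelled with biotin and hybridised to Illumina bead arrays, per the labels' protocols. By their titles the 12 arrays were 4 of systolic overload, 4 of diastolic overload and 4 controls. The deposited table holds, per the file headers, a non-normalized bead intensity and a detection p-value for each probe and array. The authors' normalized table, with normalized intensity values on a linear scale made by a method not given in the sources used here, served as an alternative.

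Background was corrected and arrays were normalized with limma 3.58.1 in R 4.3.3 (neqc: normexp with negative controls inferred from the detection p, quantile normalization, offset 16). Testing was limited to 10234 of the 22523 probes, those whose detection p was below 0.05 in 4 or more of the 12 arrays. Systolic minus diastolic overload was a contrast of a fit over all 12 arrays (lmFit, eBayes, two-sided, Benjamini-Hochberg over all tested probes). Of the 22523 probes 13793 had 1 gene symbol in the platform annotation and 8730 had none.

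The genes named were the 12 with the smallest p on each side, members of each list whose groups did not overlap (at most 6) with the 3 of smallest p, and 12 load and stress genes, of which Hspa1b was not tested. Genes of over 2-fold difference and further list members given for contrast lie outside this rule and were chosen after their values were seen. The comparison, its members and the 38 lists were chosen with earlier results of these data known. A gene whose probe was above background in none of a group's hearts is given a bound, the mean of the brighter group against the higher of the dim probe's own signal and the lowest signal among detected probes. On simulated data with 200 of 10234 probes shifted, the test found 45.8% of shifts of 0.5 in log2, and 89.7%, 97.8% and 98.8% of shifts of 1, 1.5 and 2, with 8.35 false calls on average. The simulated noise was normal, independent between probes and of equal spread in all groups, with no outlying heart. Real hearts depart from this, as diastolic heart 1 does, so these shares check the code and do not give the power in these data. The number of arrays limits the precision. Deviations from the group means correlated at −0.24 to −0.12 between samples of the same number in the 2 overloads. Between samples of different numbers the correlations were −0.20 to 0.28. So few values, tied to means of 4 arrays, cannot settle whether the numbers pair the samples, and the main fit used no pairing. Alternatives were median scaling, no background correction, the authors' table, other filters, the 8 overloaded arrays alone, a replicate block, array weights, trended robust variance, each array left out, and for lists medians over hearts and all probes of a gene averaged.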

Additional observations from a re-analysis of the deposited data

Results flagged for a closer look

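Single hearts far from the other 3 of their group were found for 21 of 290 pairs of a named gene and an overload group, where chance, at about 1 in 20 groups, gives 14.5, so the count alone sets none of them apart. In the systolic group, heart 1 was far above the others for Cdkn1a (8.68) and Mmp14 (9.33) and below them for Eci1 (13.86). Systolic heart 2 was far below for Rgs4 (6.12) and Ankrd1 (14.74). Systolic heart 3 was far below for Traf4 (5.47) and above for Tap1 (8.42) and Mbp (5.77), and systolic heart 4 was far above for Insr (6.43) and S100a4 (8.32).

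In the diastolic group, heart 1 was far above the others for Ier3 (11.49), Nfkb2 (10.22) and Emcn (10.42). Diastolic heart 2 was above for Traf4 (5.45) and Rock2 (7.60) and below for Jun (9.12) and Cpa3 (4.82), diastolic heart 3 was above for Camk2a (5.61), and diastolic heart 4 was above for Rad17 (5.71) and Maff (6.72) and below for Socs2 (6.85). Of 68 pairs of a list's mean deviation and a group, 2 were found where chance gives 3.4. The fibroblast markers had systolic heart 3 far above its group (0.04), and the lymphocyte markers had diastolic heart 2 far below (−0.22).

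Calr had 4 of 4 systolic hearts above and 4 of 4 diastolic hearts below all 4 controls. The difference between the overloads was tested and did not pass (0.26 in log2, limma adjusted p = 0.650).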

How the results depend on the processing

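With limma, 0 probes passed under each of the 21 alternative fits, with smallest adjusted p-values from 0.115 (without systolic heart 2) to 0.821 (without systolic heart 1). Probes with an unadjusted p under 0.05 numbered 559 to 686 with 1 array left out, 530 with median scaling (511.7 expected by chance), 458 of 7932 with detection asked for in all 8 overloaded hearts (396.6 expected) and 1328 without the filter, when all 22523 probes were tested (1126.2 expected). The replicate block gave 0 calls and 638 probes with an unadjusted p under 0.05, against 647. Of the list medians under the alternatives, 729 of 748 moved by less than the list's own pooled SD between hearts. A list with a wide spread can hardly exceed that, so the count does not measure stability. The interferon and cytokine medians changed sign without diastolic heart 1 and are still among the 729 (pooled SD 0.47 and 0.26). Fits without a control heart were also counted, and they can hardly move this contrast. Median scaling put the median of all probes at 0.03, against 0.01, and gave medians of 0.0784 for cytosolic heat shock, 0.0562 for sarcomere, 0.0884 for glycolysis and hypoxia, 0.11 for citric acid cycle and respiratory chain, 0.14 for antioxidant, 0.0652 for proteasome and autophagy and 0.0557 for cardiomyocyte genes. The MAPK kinases had −0.11 with medians over hearts, the PI3K list 0.0226 without the filter and the erythroid genes 0.73 when detection in all 8 overloaded hearts was asked for, which left fewer genes.

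Leaving out single arrays gave medians of −0.0291 to 0.0209 for cytosolic heat shock, −0.17 to −0.00147 for immediate early, −0.10 to −0.0355 for MAPK kinases, 0.0092 to 0.15 for adrenergic, angiotensin and endothelin, 0.0407 to 0.0984 for antioxidant and 0.0636 to 0.21 for smooth muscle genes. Of 145 genes named by the rule, 132 kept their sign under every alternative run. Most were named for a small p or for groups that did not overlap in these same values. Leaving out 1 heart can hardly turn the sign of such genes, so this count does not measure how stable the differences are. Under median scaling the sign turned for Myh7 (0.0658), Ankrd1 (0.0802), Acta1 (0.0117), Nppb (0.0957), Egr1 (0.0489) and Atf3 (0.0777), and with array weights for Egr1 (0.0341) and Atf3 (0.00253). With single arrays left out, differences crossed 0 for Pparg (−0.0577 to 0.19), Cidec (−0.16 to 0.0421), Nppa (−1.08 to 0.25), Ankrd1 (−0.0497 to 0.0156), Acta1 (−0.23 to 0.0304), Fabp4 (−0.17 to 0.0229), Fos (−0.14 to 0.30), Il6 (−0.28 to 0.17), Myh6 (−0.0146 to 0.0372), Egr1 (−0.18 to 0.16) and Atf3 (−0.0445 to 0.0427). The cause was not tested. Dim probes limit what can be said: 118 of the 145 genes were above background in 8 of 8 overloaded hearts.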
